A study of Mus musculus with 5 samples.

Results

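Trem1 Cd14 high mature neutrophils are the neutrophils of this mouse series that carried at least 4 unique molecular identifiers (UMIs, each a counted mRNA molecule) of Trem1 and Cd14 together. A cell first had to hold 200 UMIs and 100 genes or more, with mitochondrial genes giving under 20% of its UMIs. Of these, base neutrophils had at least 2% of their UMIs from S100a8 and S100a9, fewer than 2 UMIs summed over C1qa, F13a1, Cd79a, Cd3e and Clec4g, fewer than 10 of Ngp, fewer than 3 over Ifit1, Ifit3 and Rsad2, and fewer than 3 over Il1a, Icam1 and Nr4a3. The gate on Trem1 and Cd14 then kept 5047 of 18923 base neutrophils, out of 36720 cells that passed the quality filter and 38072 barcodes in all. They are compared below with the 5911 base neutrophils that had 0 UMIs of both genes, called zero cells. The 7965 base neutrophils with 1 to 3 UMIs lie between.

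The series sorted live CD11b+ Ly6G+ cells of C57BL/6 mice, a common inbred laboratory strain, out of bone marrow, blood, spleen, liver, lung and intestine. Old mice had an age of 20 months; for young mice the sample labels give 10 weeks and the design text 8 weeks. No treatment or altered allele is named. The experiment was done again with its own BD Rhapsody cartridge, a microwell device that gives each cell a barcode, which gave the pools YO1 and YO2. Each pool mixed tissues and ages, and the barcodes carry the pool alone, so tissue and age were not analysed here.

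Trem1 encodes a receptor of myeloid cells that signals through the adaptor Tyrobp (DAP12) and Syk and amplifies the response to microbial products. Cd14 encodes a co-receptor that hands lipopolysaccharide to the Toll-like receptor complex. Both receptors feed NF-kB and MAP kinase signalling, whose early targets in neutrophils include cytokine genes and the Fos, Jun and Egr families of immediate early genes.

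The gated cells numbered 1997 in YO1 and 3050 in YO2. They made up 20.0% of base neutrophils in YO1 (95% exact Clopper-Pearson interval 19.2 to 20.8) and 34.2% in YO2 (33.2 to 35.1), intervals that cover counting error of 1 library each. The gate is a count, so it favours cells with more UMIs: the median was 1184 UMIs in gated cells against 933 in zero cells of YO1, and 1551.5 against 1163 in YO2. Every cell was also thinned to 1000 UMIs with shallower cells left out, which kept 5376 of 9992 base neutrophils in YO1 and 7872 of 8931 in YO2. The shares were then 21.0% (19.96 to 22.2) and 24.1% (23.1 to 25.03), and the intervals of the pools did not overlap. Among cells of 1000 to under 1500 UMIs they were 25.8% (24.3 to 27.2) and 26.2% (24.9 to 27.4), and there the intervals overlapped. The pools shared 406 cell numbers, of which 4 were gated cells in both.

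Trem1 supplied most of the gate. It gave 68.2% of the gate UMIs of gated cells in YO1 and 72.3% in YO2. Both transcripts were seen in 60.6% of gated cells of YO1 and 56.7% of YO2, while 35.5% and 41.2% had no Cd14 UMI and 3.86% and 2.13% had no Trem1 UMI. The median gated cell held 6 gate UMIs in YO1 and 7 in YO2, and the highest 41 and 46.

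A Cd14 UMI was seen more often in cells with more Trem1 UMIs. In YO1 a Cd14 UMI was present in 12.3% of base neutrophils without Trem1 and in 56.7% of those with 6 or more Trem1 UMIs. In YO2 these shares were 16.8% and 49.9%. Among cells of 1000 to under 1500 UMIs the rise was from 14.8% to 50.1% in YO1 and from 16.2% to 40.5% in YO2, so it remained at matched depth. As a rough guide to background, B cells thinned to 1000 UMIs held a Trem1 UMI in 10.7% (YO1) and 8.34% (YO2) and a Cd14 UMI in 4.70% and 4.30%. Whether these UMIs are free RNA was not tested. Before thinning these B cells had median depths of 1336 and 3980 UMIs. The plot of Cd14 detection by Trem1 count shows the rise at all depths and within the narrow depth band.

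**Figure D1:**
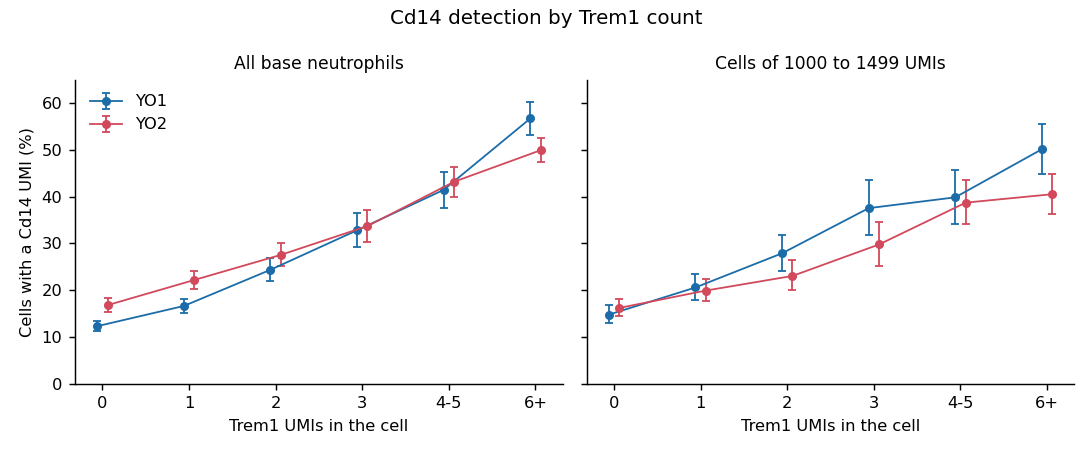
Share of base neutrophils with a Cd14 UMI (y, %) by the number of Trem1 UMIs in the cell (x), in all base neutrophils (left) and in those of 1000 to under 1500 UMIs (right), for pools YO1 and YO2. Bars are exact 95% binomial intervals. In both panels the share rises with Trem1, to 56.7% and 49.9% on the left and 50.1% and 40.5% on the right.

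The label was checked against markers. Trem1 stood at 3784 CPM (UMIs of the gene scaled to a common total, over the summed cells of a group) in gated cells of YO1 and 3355 in YO2, and Cd14 at 1762 and 1288, which the gate sets. Ptgs2, the inducible cyclooxygenase that starts prostaglandin synthesis, stood at 326 CPM in zero cells, 582 in cells between and 1673 in gated cells of YO1, and at 548, 987 and 2139 in YO2. Fosb, a partner of Jun proteins in the AP-1 transcription factor, stood at 180, 327 and 995 CPM in YO1 and at 195, 368 and 837 in YO2. Both given markers thus went up in step with the gate in each pool, Ptgs2 by 2.36 and 1.96 and Fosb by 2.46 and 2.09 on the log2 scale from zero to gated cells. They were named as markers of these cells beforehand, so this is a description with no test.

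The mature neutrophil markers of the label were present. Summed over 10 markers, which include the S100 genes of the rule, they reached 79705 CPM in gated cells of YO1 and 74248 in YO2, against 109422 and 75624 in zero cells. Most of each sum came from S100a8 and S100a9, which the rule requires. In gated cells these 2 stood at 24526 and 32796 CPM in YO1 and at 25555 and 26742 in YO2. In zero cells they stood at 34397 and 43696 CPM in YO1 and at 26722 and 27073 in YO2. The sum is thus largely set by the rule and is no test of the label. In YO1 this summed level was lower in gated cells, in YO2 it was nearly the same, and 2 and 4 of the 10 markers were higher in gated cells. The sum over 10 immature markers was 2244 against 4433 CPM in YO1 and 1579 against 1352 in YO2. The 10 include Mpo, whose 855 UMIs in zero cells of YO1 came mostly from a few cells. The rule also limits Ngp, itself a marker of immature cells. The immature sum was thus higher in zero cells of YO1 than in those of YO2, but it is no clean measure of immature cells.

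At the edge of the gate the given markers were higher just inside than just outside. Ptgs2 stood at 841 CPM in cells with 3 gate UMIs and 1096 with 4 in YO1, and at 1313 and 1681 in YO2. Fosb stood at 453 and 636 CPM in YO1 and at 482 and 630 in YO2. The exact 95% Poisson intervals of the levels at 3 and 4 gate UMIs did not overlap for either gene in either pool. These intervals cover counting error alone and leave out the spread between cells. Steps outside the gate could be as clear: in YO1 those of Ptgs2 were 399 to 448 at 1 gate UMI and 672 to 758 at 2. The gated cells are a range of a graded count, with 692 and 769 base neutrophils at 3 UMIs just outside and 434 and 552 at 4 just inside.

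Across all other genes, gated cells were set against zero cells within each pool. UMIs were summed per pool and level, and edgeR's quasi-likelihood test with the pool as a block and Benjamini-Hochberg adjustment at 0.05 was run on 8706 genes. It called 234 genes higher (2.69%) and 56 lower (0.643%) in gated cells. All 234 higher genes had the same sign in both pools, as did 52 of the 56 lower genes. Scaled to total UMIs in place of TMM factors, 198 genes were higher and 107 lower, so the share of calls that were higher went from 80.7% to 64.9%. Without the pool as a block edgeR called 32 higher and 0 lower, with 476 and 187 at an unadjusted p under 0.05, and DESeq2 called 158 and 9. The 2 pools are the replicates. With the pool as a block the test speaks of how far differences between levels vary from pool to pool, and not between animals.

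Depth was also equalised. Zero and gated cells were matched to each other on UMI total, which kept 1786 cells of each kind in YO1 and 1318 in YO2. Gated cells were thus left out too, from 1997 in YO1 and 3050 in YO2. Their median went from 1184 to 1142 UMIs in YO1 and from 1551.5 to 1332 in YO2. In the matched cells edgeR called 331 of 7353 genes higher (4.5%) and 74 lower (1.01%). Of the 234 higher genes 159 were called again, and of the 56 lower genes 25.

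Among the 12 genes with the largest rise, chosen by size, 7 are known as stress, feedback or inflammatory genes. Tnfaip3 encodes A20, a ubiquitin-editing brake on NF-kB. Its level was 56.8 CPM in zero and 288 in gated cells of YO1, and 47.0 and 250 in YO2. It was higher in gated cells of each pool, by 2.45 ± 0.10 on the log2 scale (SE, edgeR adjusted p = 4.7e-06).

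Cxcl2, a chemokine that draws neutrophils through Cxcr2, stood at 723 CPM in zero and 2775 in gated cells of YO1, and at 561 and 3005 in YO2. This was a rise of 2.26 ± 0.11 (SE, edgeR adjusted p = 8.9e-06). Nr4a1, an orphan nuclear receptor induced within minutes of stimulation, went from 418 to 2185 CPM in YO1 and from 482 to 1701 in YO2. Acod1, which makes itaconate from an intermediate of the citric acid cycle, went from 96.6 to 487 CPM and from 105 to 368.

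Cdkn1a, which encodes the cyclin kinase inhibitor p21, went from 33.2 to 165 CPM in YO1 and from 28.5 to 126 in YO2. Dusp5, a nuclear phosphatase of ERK, went from 96.3 to 438 CPM and from 106 to 358. Snai1, a zinc finger repressor, went from 21.6 to 76.4 CPM and from 8.51 to 57.1. For these 7 genes the zero and gated levels were apart in the same direction in both pools, with log2 differences of 2.05 to 2.45, and all 7 stayed called after matching on UMIs, at 2.10 to 2.57.

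The other 5 of the 12 behaved otherwise. Sftpc, the surfactant protein C of lung alveolar cells, had 803 UMIs in gated cells of YO2, and 784 of them lay in 1 cell. It had 12 UMIs in zero cells of YO2, and 0 and 2 in zero and gated cells of YO1, so its log2 difference of 5.03 ± 0.44 (SE, edgeR adjusted p = 2.0e-04) rests on that cell. With the cells of the highest UMI totals left out it was 0.55 and not called.

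Ms4a6c, Ace, Ly86 and Adgre4 are genes known in monocytes, Ace and Adgre4 in the nonclassical kind. In YO2 Ms4a6c had 8 UMIs in zero cells and 397 in gated cells, where 111 cells held them. Those 111 cells had a median of 3850 UMIs, against 1551.5 in all gated cells of the pool. Ace was held by 101 such cells with a median of 3794 UMIs.

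The 4 genes were higher by 2.30 to 2.51 in edgeR, and after matching on UMIs Ms4a6c stood at -0.052, Ace at -0.059, Adgre4 at 0.23 and Ly86 at 0.57, with none called. Matching left out gated cells as well as zero cells, and the part of this in the drop was not tested. Summed over 9 monocyte markers the level was 822 CPM in zero and 932 in gated cells of YO1, and 608 and 911 in YO2. None of the 9 was at 0, and 8 of 9 were higher in gated cells of YO1 and 7 of 9 in YO2. The 9 include F13a1, which the rule limits, and Csf1r, Ly6c2 and Ctss, which were left out of the markers counted next. Their sum is thus no clean measure of monocyte content. Cells with at least 2 UMIs of other cell types' markers made up 9.76% of zero and 16.4% of gated cells in YO1, and 29.9% and 41.5% in YO2. This is a count over 46 markers, so it favours deeper cells. Gated cells over the cut had a median of 1681 UMIs against 1144 in YO1 and 1749.5 against 1467 in YO2. The 46 include 3 plasma cell markers, summed at 36.3 CPM in zero and 37.9 in gated cells of YO1 and at 680 and 626 in YO2. Whether cells over the cut are mixtures of cell types was not tested. No doublet caller was run, and the part of such cells in these calls was not tested. With all of them left out edgeR called 224 of 7552 genes higher (2.97%) and 36 lower (0.477%), and 162 and 23 of these were among the first calls.

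**Figure D2:**
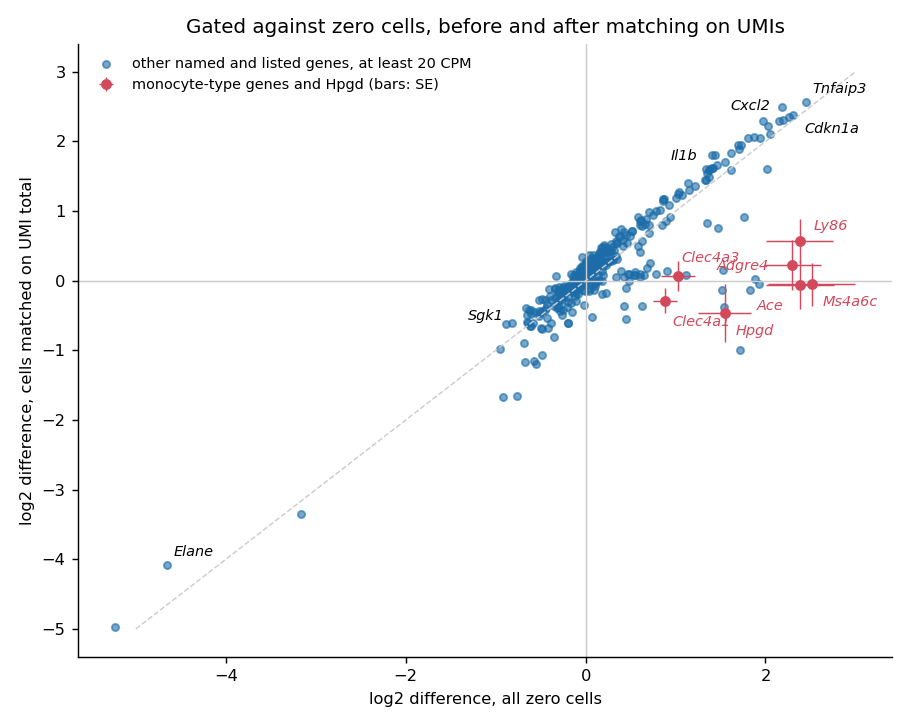
log2 difference between gated and zero cells with all cells of both kinds (x) and after matching both on UMI total (y), for named and listed genes averaging at least 20 CPM. The broken line marks equal values. Tnfaip3, Cxcl2 and Cdkn1a lie near it, while the red genes, with SE bars, drop to between -0.46 and 0.57, as do some of the unlabelled points.

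Immediate early and AP-1 genes were the group with the most higher calls. Of 26 tested genes, 18 were higher, 3 lower and 5 not called, with a median log2 difference of 1.21, against -0.02 over all 8706 genes. The median was 1.07 in YO1 and 0.84 in YO2. Over all 8706 genes the shares called were 2.69% higher and 0.643% lower, which stand beside the counts of this and the later lists. Some genes, such as Dusp1, are in more than 1 list. After matching edgeR called 20 of 26 higher and 0 lower (21 and 1 at an unadjusted p under 0.05).

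Fos, the founding AP-1 subunit, stood at 2696 CPM in zero and 5169 in gated cells of YO1 and at 3389 and 6584 in YO2, a rise of 1.03 ± 0.07 (SE, edgeR adjusted p = 3.4e-05). Junb went from 4963 to 6872 CPM and from 4165 to 6326. Atf3, a stress-induced partner of the AP-1 family, went from 211 to 563 CPM and from 161 to 376. Each of these genes was higher in gated cells of both pools.

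Of the AP-1 subunit genes not all moved one way. Jun stood at 524 CPM in zero and 389 in gated cells of YO1 and at 878 and 543 in YO2, and was called lower by edgeR (-0.49 ± 0.08 SE, adjusted p = 0.012). Rhob, an immediate early small GTPase, and Ier5 were called lower as well, at -0.41 and -0.34. After matching on UMIs none of these 3 was called, at -0.27, -0.12 and -0.11. Fosl2 and Jund were higher, at 0.75 and 0.38.

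Egr1, an immediate early zinc finger factor, separated the pools. In YO1 it stood at 176 CPM in zero and 1018 in gated cells, and in YO2 at 1035 and 1340. Its rise was 2.53 in YO1 and 0.37 in YO2, a difference between pools that was not tested, and the edgeR call over both pools was missed (1.54 ± 0.39 SE, adjusted p = 0.069). Its relatives Egr2 and Egr3 were higher in both pools, at 1.71 and 2.73 in edgeR, at low levels of under 24 CPM in every group.

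Other genes that shut off signalling rose with them. Dusp1, which dephosphorylates p38 and JNK, went from 4764 to 7605 CPM in YO1 and from 3420 to 5677 in YO2 (0.78 ± 0.06 SE, edgeR adjusted p = 8.8e-05). Zfp36, which encodes the mRNA decay factor tristetraprolin, went from 4676 to 5237 CPM and from 4713 to 6983. Of 14 tested genes of RNA decay and feedback 5 were higher and 0 lower, with a median of 0.16: Dusp1, Zfp36, Zfp36l1, Zc3h12a and Rgs1. Btg2, an antiproliferative immediate early gene, went from 1602 to 4614 CPM and from 1996 to 4209.

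Genes known to answer cyclic AMP showed 7 higher and 0 lower of 11 tested, with a median of 1.01. Sik1, a salt-inducible kinase, went from 311 to 745 CPM in YO1 and from 253 to 607 in YO2. Pde4b, the phosphodiesterase that degrades cyclic AMP, went from 207 to 443 CPM and from 179 to 300. Thbs1, which encodes thrombospondin, went from 185 to 596 CPM and from 85.1 to 362. Crem, Per1, Nr4a2 and Cd9 were the other 4, and Rgs2 was lower in both pools without a call, at -0.26.

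NF-kB response and feedback genes showed 10 higher and 0 lower of 22 tested, with a median of 0.34, and 8 higher after matching. Nfkbia, the inhibitor that NF-kB induces against itself, stood at 1046 CPM in zero and 1712 in gated cells of YO1 and at 720 and 1422 in YO2. Nfkbiz, a nuclear inhibitor family member, went from 292 to 957 CPM and from 306 to 781. Ccrl2, a receptor that binds chemerin, went from 113 to 420 CPM and from 153 to 618. All 3 were higher in gated cells of both pools, at 0.93, 1.62 and 2.03 in edgeR, and Nfkbid, Nfkbie, Tnfaip2, Tnfaip3, Cd83, Sod2 and Traf1 completed the 10. Cd83 and Traf1 were not called after matching.

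Cytokine and chemokine genes showed 10 higher and 1 lower of 22 tested, with a median of 0.63. Il1b, which encodes interleukin 1 beta, stood at 6133 CPM in zero and 16130 in gated cells of YO1 and at 6670 and 14559 in YO2, a rise of 1.34 ± 0.08 (SE, edgeR adjusted p = 1.1e-05). Osm, which encodes oncostatin M, went from 479 to 1310 CPM and from 693 to 1607. Ccl4, an inflammatory CC chemokine, went from 52.1 to 179 CPM and from 58.1 to 139. The levels of all 3 were apart in each pool.

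Some members of that list were scarce. Cxcl1, a neutrophil chemokine, had 6 UMIs in zero cells of YO1, all in 1 cell, and 0 in zero cells of YO2, against 35 UMIs in 8 gated cells and 113 UMIs in 18 gated cells. Il23a, a subunit of interleukin 23, had 3 and 5 UMIs in zero cells and 35 and 105 in gated cells. Both were called higher by edgeR but came from few cells. Cxcl3, Il1r2, Csf1 and Ccl3 were the other higher genes, and Tnfsf14 was the lower one, at -0.39. Tnf, the classical partner cytokine of Il1b, was seen in 3.64% of gated and 3.85% of zero cells of YO1 thinned to 1000 UMIs, and in 3.14% and 2.24% in YO2.

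Thinned cells gave the same picture for the common genes. Ptgs2 was seen in 55.7% of gated, 13.9% of zero and 10.7% of B cells in YO1 and in 59.3%, 21.7% and 10.95% in YO2. Cxcl2 was seen in 61.3%, 20.1% and 8.97% in YO1 and in 54.2%, 14.8% and 10.2% in YO2. Osm was seen in 55.2%, 28.6% and 4.27% and in 57.9%, 29.6% and 4.82%. Gated cells stood well above zero cells for these genes, and zero cells stood above or near the B cell level.

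The genes around the gate receptors moved little. Of 20 tested genes of TREM1 partners and signalling, 0 were called in either direction by edgeR, over a background of 2.69% and 0.643%, and the median was 0.03 (-0.05 scaled to total UMIs). At an unadjusted p under 0.05 there were 1 higher and 4 lower, and DESeq2 called 0. Tyrobp, the adaptor of the receptor, stood at 5024 CPM in zero and 4866 in gated cells of YO1 and at 6545 and 5615 in YO2. Syk, the kinase it recruits, stood at 499 and 556 CPM and at 512 and 499. Neither gene differed beyond the spread of the fit.

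Of 25 tested genes of Toll-like sensing 3 were higher and 0 lower, with a median of 0.038. Tlr2, the receptor for bacterial lipoproteins, went from 170 to 240 CPM in YO1 and from 92.4 to 198 in YO2 (0.85 ± 0.13 SE, edgeR adjusted p = 0.0070). Nlrp3, the inflammasome sensor that leads to interleukin 1 beta release, went from 514 to 990 CPM and from 681 to 1046. The third was Ly86, described above. Tlr4, the receptor that Cd14 serves, was seen in 4.17% of gated and 5.44% of zero cells of YO1 thinned to 1000 UMIs and in 5.09% and 5.24% in YO2.

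Of 15 tested C-type lectin and related receptors 3 were higher and 0 lower, with a median of 0.014. Clec4e, which encodes Mincle, a receptor for mycobacterial glycolipids, went from 712 to 1028 CPM in YO1 and from 848 to 1259 in YO2. It stayed called after matching, at 0.78, whereas Clec4a1 and Clec4a3 did not, at -0.28 and 0.07. Among 17 chemoattractant and Fc receptors 2 were higher and 0 lower. Hcar2, a receptor for niacin and beta-hydroxybutyrate, went from 340 to 698 CPM and from 413 to 764, and Plaur, the urokinase receptor, from 431 to 933 and from 376 to 769. Trafficking receptors and adhesion genes had 0 of 22 called by edgeR (4 higher and 1 lower unadjusted, 0 by DESeq2) and a median of -0.01, with Cxcr2 at -0.15 and Cxcr4 at 0.34.

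**Figure D3:**
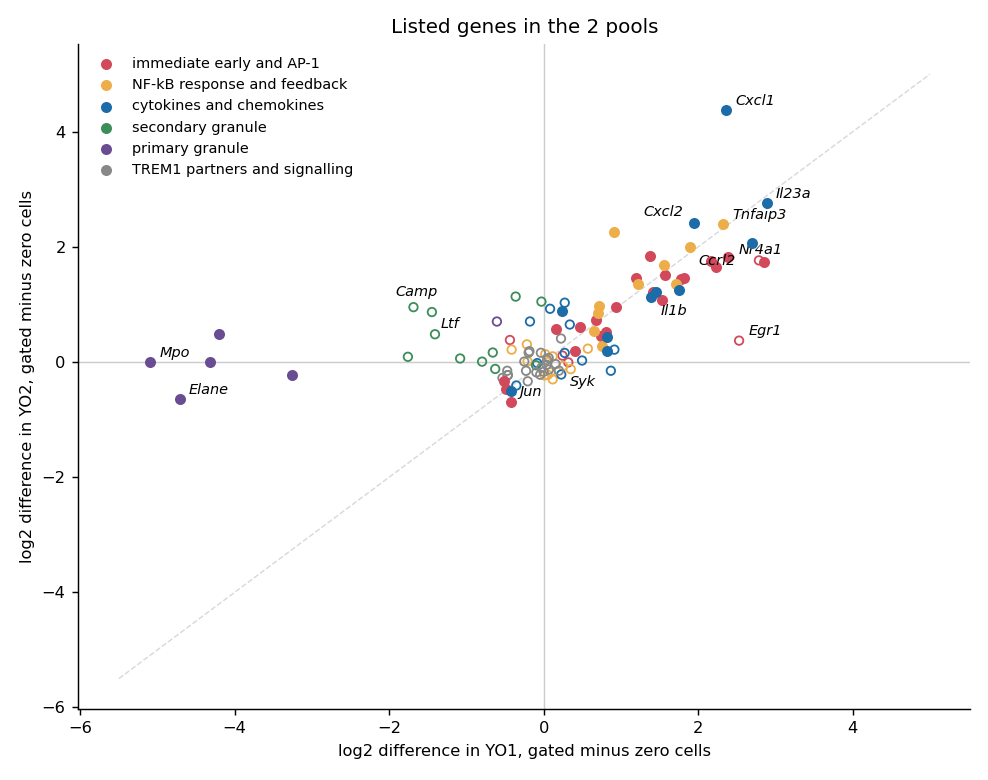
log2 difference between gated and zero cells in YO1 (x) and YO2 (y) for the genes of 6 lists, with filled points called by edgeR and open points not called. The broken line marks equal values. Immediate early, NF-kB and cytokine genes lie along it up to Cxcl1, Egr1 lies off it at 2.53 and 0.37, and the 5 called primary granule genes lie at -5.10 to -3.26 in YO1 and -0.65 to 0.48 in YO2.

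Survival genes were partly higher. Of 26 tested genes 7 were higher and 0 lower, beside 2.69% and 0.643% over all genes, with a median of 0.20. Pim1, a kinase that supports survival, went from 1538 to 3239 CPM in YO1 and from 1820 to 4192 in YO2 (1.22 ± 0.07 SE, edgeR adjusted p = 1.1e-05). Mcl1, the short-lived guardian of neutrophil survival, went from 3001 to 3922 CPM and from 3776 to 4161. Gadd45b, Cdkn1a and the A1 genes Bcl2a1a, Bcl2a1b and Bcl2a1d made up the rest, the last 3 at under 28 CPM and uncertain because they are near-identical copies.

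Granule genes differed between the pools. Of 6 primary granule genes 5 were called lower, with a median of -4.14, while DESeq2 called 0 (2 lower unadjusted). Elane, neutrophil elastase, had 932 UMIs in zero cells of YO1, and 5 cells held 95.6% of them; gated cells of that pool had 24, and YO2 had 3 and 2. Mpo, myeloperoxidase, had 855 UMIs in zero cells of YO1, 16 in gated cells and 0 in both groups of YO2. The call thus rests on about 5 cells of 1 pool, and with cells that carried a UMI of Ngp, Ltf, Camp, Cd177 or Gpr27 left out Elane stood at 0.17.

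Secondary granule genes had 0 of 12 called by edgeR, with 1 higher and 3 lower at an unadjusted p under 0.05, and 0 by DESeq2. Their median was -0.73 in YO1 and 0.13 in YO2, and 5 were lower after matching. Ltf, lactoferrin, stood at 186 CPM in zero and 67.7 in gated cells of YO1 and at 14.05 and 26.5 in YO2. Ly6g, the surface antigen used in the sort, stood at 227 and 92.2 CPM in YO1 and at 88.0 and 110 in YO2. Retnlg, a resistin-like protein of mature neutrophils, stood at 18423 and 9840 CPM and at 8016 and 9178. These genes stood lower in gated cells of YO1 and higher in those of YO2, and the difference between pools was not tested.

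The remaining lists are given by their counts, beside shares over all genes of 2.69% higher and 0.643% lower, and nothing particular to a list is read from them. Of 27 tested interferon-stimulated genes 1 was higher, Isg15 at 1.07, and 1 lower, Slfn1 at -0.33, with the caution that 3 such genes are limited by the rule. Of 30 hypoxia and glycolysis genes 2 were higher, the glucose transporter Slc2a1 at 0.70 and the lactate exporter Slc16a3 at 0.83. Of 9 iron genes the ferritin heavy chain Fth1 was higher, at 0.42. Of 10 genes listed as tertiary granule genes only Hdc was higher, at 0.52, an enzyme that makes histamine and also a listed mature neutrophil marker. Of 14 mature state genes Dusp1 was higher, and of 16 heat shock genes Hsph1, at 1.99 and under 11 CPM. Of 16 eicosanoid genes Hpgd was higher, at 1.55, and stood at -0.46 after matching; Ptgs2 was kept out as a given marker. NADPH oxidase (8 genes), MHC class I (15) and cell cycle (11) had 0 calls in edgeR and in DESeq2, with 1, 4 and 1 genes at an unadjusted p under 0.05 in edgeR. Of 82 ribosomal protein genes 1 was higher. Of 13 mitochondrially encoded genes edgeR called 0, with 12 higher at an unadjusted p under 0.05, and DESeq2 called 1 higher; their median was 0.55, and 0.09 after matching. The mitochondrial share of UMIs was 1.11% in zero and 1.18% in gated cells of YO1 and 0.634% and 1.12% in YO2, a rise in YO2 whose part in the results was not tested.

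Apart from Elane, the 10 genes with the largest fall were modest. Sgk1, a kinase regulated by glucocorticoid and serum, stood at 67.4 CPM in zero and 41.7 in gated cells of YO1 and at 112 and 53.6 in YO2 (-0.82 ± 0.11 SE, edgeR adjusted p = 0.0038). Id1, an inhibitor of basic helix-loop-helix factors, stood at 67.1 and 27.0 CPM and at 57.7 and 35.5. Rsrp1 stood at 729 and 418 CPM and at 682 and 432. Both pools had lower levels in gated cells for each. The others were Zfp87, Traf3ip3, Gpank1, Gpr146, Fbxl12 and Zbtb39, at -0.95 to -0.63, and after matching Id1, Gpank1, Gpr146 and Zbtb39 were no longer called.

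Levels were followed over 6 steps of the gate count, from 0 to 6 or more UMIs. Of 4288 genes averaging at least 20 CPM, 36 rose at every step in both pools (Spearman's rho of 1 over 6 points) and 8 fell at every step. The 8 with the largest rise of the 36 were Cxcl2, Nr4a1, Acod1, Plk3, Thbs1, Plk2, Ppp1r15a and Csrnp1. Plk2 and Plk3 are stress-induced polo-like kinases, and Ppp1r15a encodes GADD34, which restores translation after stress.

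Cxcl2 stood at 723, 952, 1517, 1687, 2096 and 3148 CPM over the 6 steps in YO1 and at 561, 763, 1428, 1510, 2060 and 3395 in YO2. Nr4a1 stood at 418, 525, 908, 1129, 1650 and 2478 CPM in YO1 and at 482, 650, 985, 1009, 1364 and 1840 in YO2. Both climbed through cells that the gate leaves out. Median UMIs climbed over the same steps as well, from 933 to 1233 in YO1 and from 1163 to 1582 in YO2, so this is a description with no test.

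**Figure D4:**
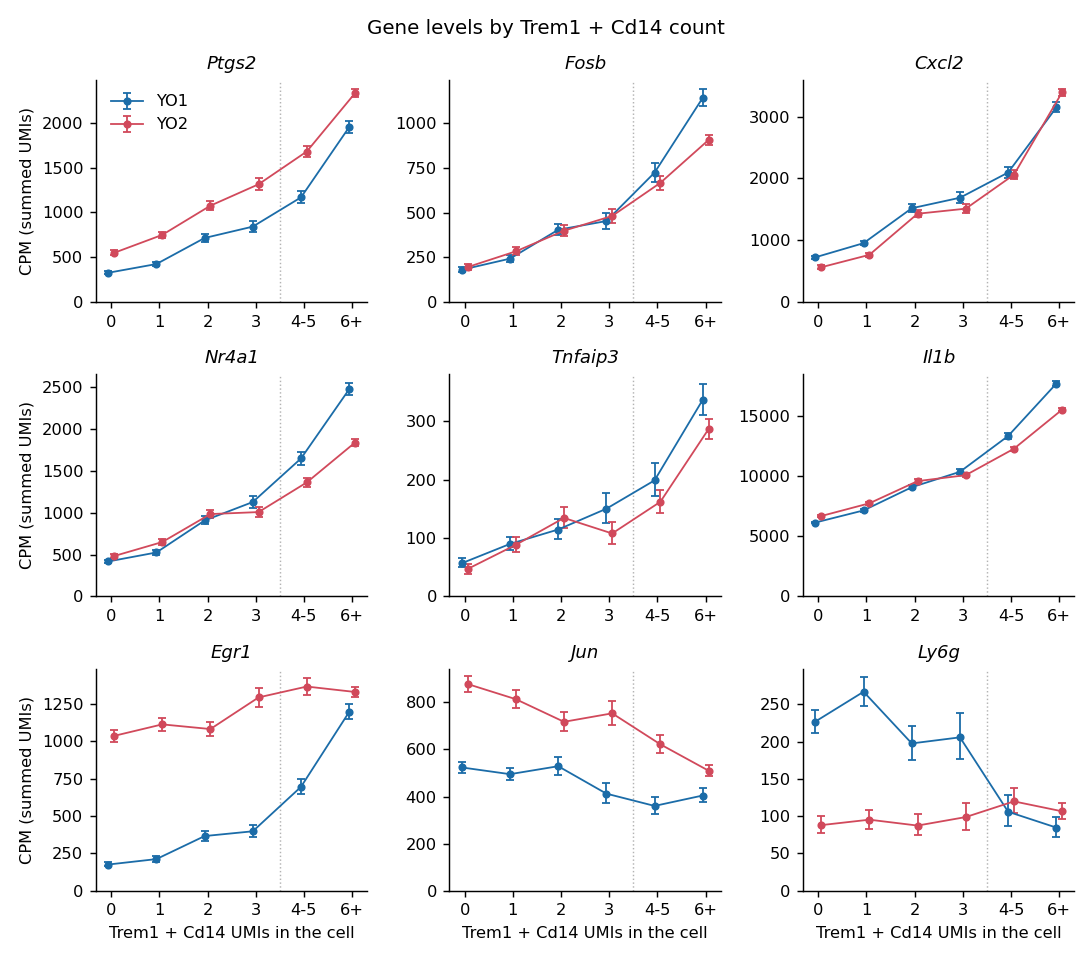
CPM with exact 95% Poisson intervals (y, counting error only) by the number of Trem1 and Cd14 UMIs in the cell (x) for 9 genes in pools YO1 and YO2. The dotted line is the gate at 4 UMIs. Ptgs2, Fosb, Cxcl2, Nr4a1 and Il1b climb at every step in both pools, Egr1 climbs steeply in YO1 from 176 CPM, and Ly6g goes down in YO1 and not in YO2.

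Promoters are shown for Trem1 and for 4 genes whose levels went up with the gate. The sequences are RefSeq windows on GRCm38.p6, of the same coordinates as mm10, from 250 bases before to 30 bases after the start site, 5′ to 3′ on the gene's strand. Capitals mark matches on either strand to the full cyclic AMP element TGACGTCA, its core TGACG (which lies within the full element), the AP-1 motif TGANTCA, the CArG box of serum response factor and the NF-kB consensus. Trem1 lies at chr17:48232489-48232768 on the plus strand, Ptgs2 at chr1:150099781-150100060 (plus), Fosb at chr7:19310016-19310295 (minus), Tnfaip3 at chr10:19015381-19015660 (minus) and Cxcl2 at chr5:90903649-90903928 (plus). For Tnfaip3 the more upstream of 2 windows is shown.
Trem1: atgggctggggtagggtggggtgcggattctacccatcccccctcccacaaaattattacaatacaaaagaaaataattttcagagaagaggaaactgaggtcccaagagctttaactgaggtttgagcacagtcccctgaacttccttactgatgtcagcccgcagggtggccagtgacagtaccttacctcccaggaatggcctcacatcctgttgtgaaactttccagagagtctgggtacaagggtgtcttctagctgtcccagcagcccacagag
Ptgs2: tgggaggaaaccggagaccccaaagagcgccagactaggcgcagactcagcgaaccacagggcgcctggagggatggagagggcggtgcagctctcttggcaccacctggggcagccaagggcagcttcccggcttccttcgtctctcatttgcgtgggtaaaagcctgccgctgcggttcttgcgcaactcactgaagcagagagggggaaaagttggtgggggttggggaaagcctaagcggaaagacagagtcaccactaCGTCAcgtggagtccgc
Fosb: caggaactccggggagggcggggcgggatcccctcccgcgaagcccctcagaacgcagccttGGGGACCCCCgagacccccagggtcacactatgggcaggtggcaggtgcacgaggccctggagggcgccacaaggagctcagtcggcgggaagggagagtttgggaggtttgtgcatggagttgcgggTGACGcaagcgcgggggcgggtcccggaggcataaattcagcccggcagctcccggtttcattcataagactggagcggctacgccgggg
Tnfaip3: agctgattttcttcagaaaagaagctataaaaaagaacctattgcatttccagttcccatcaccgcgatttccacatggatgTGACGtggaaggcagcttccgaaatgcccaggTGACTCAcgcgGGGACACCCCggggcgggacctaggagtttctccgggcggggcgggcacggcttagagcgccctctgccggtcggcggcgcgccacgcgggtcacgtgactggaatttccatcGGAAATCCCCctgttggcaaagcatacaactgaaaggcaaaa
Cxcl2: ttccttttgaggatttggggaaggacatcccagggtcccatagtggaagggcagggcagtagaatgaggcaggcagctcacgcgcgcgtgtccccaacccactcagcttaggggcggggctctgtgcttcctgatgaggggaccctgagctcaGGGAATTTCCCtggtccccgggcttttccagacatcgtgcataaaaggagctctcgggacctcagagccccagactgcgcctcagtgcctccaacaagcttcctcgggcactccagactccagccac
Cxcl2 held 2 overlapping NF-kB matches between 97 and 87 bases before its start, and Tnfaip3 held 2 NF-kB matches, an AP-1 match and a TGACG core. Fosb held an NF-kB match and a TGACG core, Ptgs2 a TGACG core just after its start, and Trem1 no match in this window.

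Over windows of 300 bases, 50 of them after the start, 191 of the 234 higher genes had a promoter in the table. An NF-kB match was found in 11.5% of them, against 6.28% of tested genes and 5.14% of all 27025 genes with a promoter. The TGACG core was found in 44.0%, 37.7% and 23.05%, the full TGACGTCA in 4.71%, 3.75% and 2.03%, the AP-1 motif in 9.42%, 6.10% and 8.97%, and the CArG box in 3.14%, 1.61% and 1.81%. Of the 56 lower genes 46 had a promoter, and 15.2% of these (7 genes) held the AP-1 motif, a larger share than of the higher genes. The other shares among them were 4.35% for NF-kB, 26.1% for TGACG, 4.35% for TGACGTCA and 0% for the CArG box. A match is a string of letters and no measured binding.

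The 2 gate genes did not select quite the same cells. Gated cells with at least 3 Trem1 and at most 1 Cd14 UMI (Trem1-only) numbered 988 in YO1 and 1707 in YO2, and those with at least 3 Cd14 and at most 1 Trem1 UMI (Cd14-only) 192 and 206. Their depth was close, with medians of 1164 and 1105 UMIs in YO1 and 1519 and 1455.5 in YO2. Of 6573 genes tested with edgeR in the same way, 9 were higher (0.137%) and 12 lower (0.183%) in Trem1-only cells, and 19 of these 21 had the same sign in both pools. DESeq2 called 0 higher and 6 lower (45 and 71 at an unadjusted p under 0.05), and without the pool as a block edgeR called 0 and 0 (124 and 130 unadjusted).

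Some NF-kB genes were higher where Cd14 dominated: 4 of 22 were lower in Trem1-only cells, 0 were higher and the others were not called. The median was -0.26, against 0.01 over all genes, of which 0.183% were called lower and 0.137% higher. Nfkbia stood at 1428 CPM in Trem1-only and 2302 in Cd14-only cells of YO1 and at 1127 and 2070 in YO2 (-0.76 ± 0.06 SE, edgeR adjusted p = 1.3e-18). Tnfaip3 stood at 198 and 379 CPM in YO1 and at 180 and 356 in YO2. Ccrl2 stood at 333 and 556 CPM and at 480 and 964. The pools agreed in direction on all 3, and DESeq2 called them too. When the pool was not a block edgeR called none of the 3, with an adjusted p of 0.22 for Nfkbia.

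Of 21 tested cytokine and chemokine genes 3 were lower in Trem1-only cells (Cxcl1, Cxcl10 and Cxcl2), 1 was higher (Osm) and the others were not called, with a median of -0.11. Cxcl1 had 3 and 18 UMIs in Trem1-only cells and 17 and 10 in the far fewer Cd14-only cells, and Cxcl10, an interferon-induced chemokine, had 9 and 40 against 7 and 28. These counts are small and in YO1 nearly all Cxcl1 UMIs of gated cells, 88.6%, lay in 5 cells. Cxcl2 stood at 2371 and 2816 CPM in YO1 and at 2480 and 3214 in YO2 (-0.29 ± 0.05 SE, edgeR adjusted p = 2.0e-04). Nfkbiz, Gadd45b, Irf1, Gbp2 and Tgm2 were also lower in Trem1-only cells, and Dusp2 was called lower with opposite signs in the pools. Among the lower genes named here DESeq2 called Cxcl1, Cxcl10 and Nfkbiz, and it did not call Gadd45b, Irf1, Gbp2, Tgm2, Dusp2 or Cxcl2.

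In the other direction most differences were small. Osm stood at 1298 CPM in Trem1-only and 1147 in Cd14-only cells of YO1 and at 1584 and 1291 in YO2, and Fos at 5202 and 4966 and at 6677 and 5387. Btg2, Retnlg, Mmp9 and Actg1 differed by 0.22 to 0.24. Ccr2, a monocyte chemokine receptor, was higher at 3.33 ± 0.69 (SE, edgeR adjusted p = 0.0021) with 51 and 99 UMIs against 1 and 1, and the gated cells that held it had medians of 3656.5 and 3695 UMIs. Iglc1, an immunoglobulin light chain gene, had 284 of its 484 UMIs in gated cells of YO2 in 1 cell. The gene model Gm26532 was the ninth.

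Il1b and Nr4a1 did not separate the 2 kinds of cell. Il1b stood at 15230 CPM in Trem1-only and 14312 in Cd14-only cells of YO1 and at 14098 and 14061 in YO2, a difference of 0.08 ± 0.04 (SE, edgeR adjusted p = 0.71). Nr4a1 stood at 2048 and 1901 CPM and at 1525 and 1676, a difference of 0.01 ± 0.06.

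**Figure D5:**
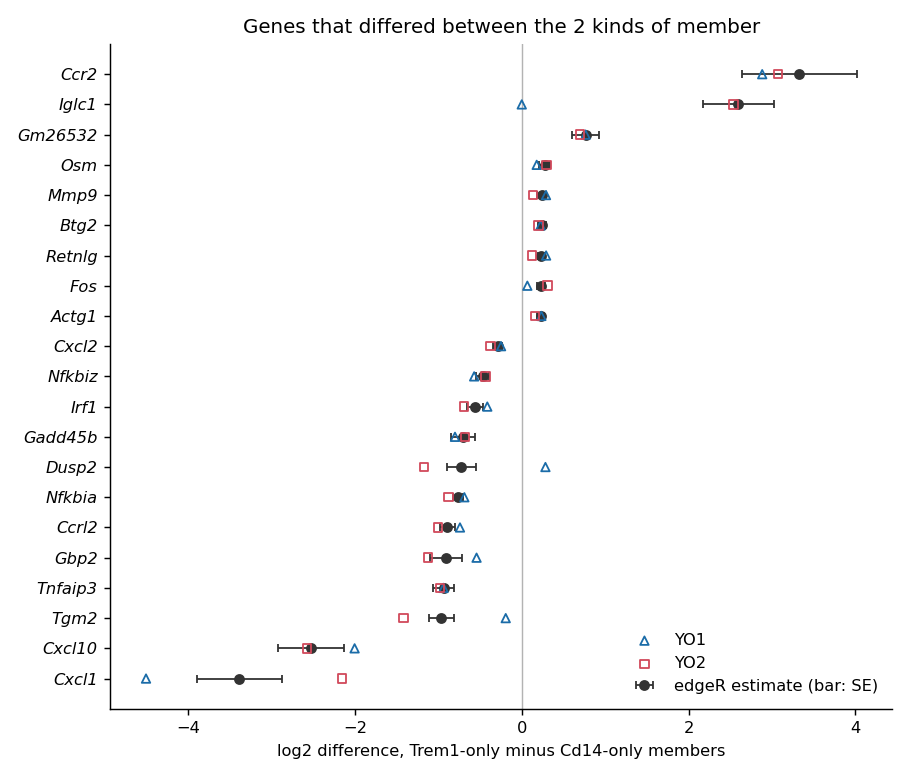
log2 difference between Trem1-only and Cd14-only gated cells (x) for the 21 genes called by edgeR (y), with the estimate and its SE in black and each pool's own value in blue and red. NF-kB genes such as Nfkbia, Tnfaip3 and Ccrl2 lie between -0.76 and -0.94, and the pools take opposite signs for Dusp2.

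Cells that failed another clause of the rule also held the gate transcripts. Of cells that failed only through Il1a, Icam1 and Nr4a3, 7 of 14 in YO1 and 65 of 110 in YO2 (59.1%, 95% exact interval 49.3 to 68.4) had at least 4 gate UMIs. Of those that failed only through Ifit1, Ifit3 and Rsad2, 27.4% and 35.9% did. Of those that failed only through Ngp, a marker of immature cells, 4.13% of YO1 and 29.7% of YO2 did, at median depths of 3073 and 4208 UMIs. Depth differs between these classes, so their shares give no order.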

How the data were processed

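The matrix the authors deposited holds whole-number UMI counts of 21995 genes in each barcode, and these were used unscaled. The submitters' processing notes name mm10. Their aligner, annotation and cell calling were not given in the sources used here. Libraries titled as tags or unidentified were not analysed here. The members and the gene lists were chosen with earlier results of these data known.

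Counts were summed per pool over 3 gate levels (6 sums, 2704183 to 5742191 UMIs each) and tested two-sided by edgeR 4.0.16 in R 4.3.3 with TMM factors, the filterByExpr filter and the quasi-likelihood test, adjusted by Benjamini-Hochberg at 0.05. DESeq2 1.42.0 gave an alternative. The 16 genes of the rule, Ptgs2 and Fosb were not tested. The pool was a block because both levels come from the same cartridge, and deviations of gated and zero sums correlated across genes (Pearson r 0.33 over 8706 genes). With the pool as a block, p-values measure how far differences between levels vary from pool to pool, not between animals. The estimate of that spread is shared over genes, so a small p-value rests on more than the gene's own 6 sums. Pool-wise log2 values are ratios of CPM plus 1.

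Named genes were the 12 highest and 10 lowest called log2 differences averaging at least 20 CPM with the same sign in both pools (gene models, ribosomal and mitochondrial genes skipped), up to 4 abundant members of each list with its largest change each way, and the 8 genes most like the gate. Other names (Ly6g, Ltf, Elane's companions, the few called members of a list and those of the Trem1-only contrast) were chosen after their values were seen. Alternatives covered UMI matching, gate and depth minima, scaling, filtering, DESeq2, the block and each pool alone. Added after seeing the data were leaving out cells with immature genes, above the 95th percentile of UMIs, or with other cell types' markers. Intervals are exact Clopper-Pearson or Poisson at 95%. Promoters were matched by symbol to RefSeq. The fit was tested on simulated data. Plots came from matplotlib 3.10.9 and sums from pandas 2.3.3, scipy 1.17.1 and numpy 2.4.6 under Python 3.11.15.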

Additional observations from a re-analysis of the deposited data

How the results depend on the processing

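With only 2 pools, depth and cells of other types limit the genes held by few cells. The higher and lower counts were 529 and 169 without the low-count filter, 32 and 0 without the replicate block, and 394 and 141 without cells carrying immature genes. Scaling to total UMIs gave 107 lower genes, DESeq2 9, and leaving out cells with other types' markers 36. For Trem1-only against Cd14-only cells, the counts were 0 and 0 without the replicate block, 0 and 6 in DESeq2, and 23 lower scaled to total UMIs. No count can be tested with 1 pool left out, since no residual degrees of freedom remain.

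The share of gated cells was 26.9% (YO1) and 42.8% (YO2) with at least 3 gate UMIs, 12.3% and 23.2% with at least 6, and 21.0% and 24.1% thinned to 1000 UMIs. The immediate early median (1.21) was 1.04 without the replicate block, 0.95 without cells carrying immature genes, 1.04 without the highest UMI totals, 0.91 without cells with other types' markers, and 0.84 to 1.07 with 1 pool left out. The cytokine median (0.63) was 0.67 after matching on UMIs, 0.55 with at least 3 and 0.68 with at least 6 gate UMIs, 0.55 with total UMIs, 0.67 in DESeq2, 0.46, 0.56 and 0.62 without cells carrying immature genes, the highest UMI totals or other types' markers, and 0.66 to 0.68 with 1 pool left out.

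Reversed were Ms4a6c (-0.052), Ace (-0.059) and Hpgd (-0.46) after matching; Elane (0.17) and Prtn3 (0.16) without cells carrying immature genes; Elane (0.94), Mpo (1.74) and Prtn3 (0.36) without other types' markers; and, without replicate 1, Prtn3 (0.48), with Mpo and Ctsg at 0, against -4.20, -5.10 and -4.32 without replicate 2. Other causes were not tested. Of the 22 genes named by size, 16 were no longer called without the replicate block and 10 in DESeq2.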
